A study of Rattus norvegicus with 4 samples.

Results

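The genes of the muscle contractile apparatus were compared between wtPC12 and hrPC12, a pair of clones of PC12, the line of adrenal chromaffin cells isolated from a rat pheochromocytoma. The set holds 52 genes chosen by name, which encode proteins of the thin filament, thick filament and Z disc of the sarcomere, of the calcium store, and of the muscle membrane and cytosol. A row of that name was found for 37 of them among the 25810 genes of the count files. The other 15 (Acta2, Neb, Myh1, Myh3, Myh4, Myh8, Myl2, Myl4, Mybpc1, Ttn, Ldb3, Ryr1, Ryr2, Atp2a1 and Dmd) were not analysed here. RNA was sequenced in 2 libraries of wtPC12, a clone with low levels of the transcriptional repressor REST, and 2 of hrPC12, a clone with high levels that arose in the line without genetic manipulation. Each REST level is thus represented by 1 clone, so the REST level and any other difference between the clones cannot be told apart. The sources do not say whether the libraries came from separate cultures, and p values measure only the spread between these libraries.

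The sarcomere is the repeated contractile unit of striated muscle. Thick filaments of myosin pull on thin filaments of actin, which are anchored at the Z disc, while the thick filaments are held together at the M band. Calcium released from the sarcoplasmic reticulum binds troponin C on the thin filament, which shifts troponin and tropomyosin away from the myosin binding sites of actin, and the calcium is then pumped back into the store. Most of these proteins exist in forms encoded by separate genes that are typical of fast skeletal fibres, slow skeletal fibres or heart. Chromaffin cells, which derive from the neural crest and secrete catecholamines, build no sarcomeres.

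Of the 37 genes listed, 32 had a mean of at least 5 normalized counts over the libraries and reads in both clones, and were tested. Values are normalized counts, that is reads on the gene scaled to a common library size. A gene was called when its log2 FC (hrPC12/wtPC12) was past 2 in either direction and the quasi-likelihood test of edgeR gave a p value under 0.01 after the Benjamini-Hochberg correction over all genes tested, written here as the edgeR adj. p. By these criteria 13 of the 32 were higher in hrPC12, against 4.84% of the 13726 genes tested, and 1 was lower, against 5.46%. The median log2 FC of the 32 was 2.42, against 0.06 for all genes tested. With wtPC12 replicate 1 left out 8 genes were called higher and 1 lower, against 3.32% and 5.21% of all genes then tested, and Actc1, Tnnc2, Tpm2 and Myom2 lost the call, while Casq2 had no wtPC12 read left and was not tested. With wtPC12 replicate 2 left out, edgeR's quasi-likelihood test called no gene of the whole table, the smallest edgeR adj. p being 0.0134, although 21 genes of the set had an unadjusted p under 0.05. All called genes that could be tested kept a log2 FC past 2 in the same direction with each library left out in turn.

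The filter bears on these counts. In 23 of the 32 tested genes the mean was at least 5 in each clone, and 7 of these were called higher and 1 lower. Among all genes of that kind 3.18% were called higher and 4.41% lower. The other 9 passed the filter only through their level in hrPC12, and 6 of them were called higher, which their selection favoured. The libraries of the clones did not overlap in 27 of the 37 listed genes with hrPC12 above and in 4 with wtPC12 above. Among the 32 tested genes these numbers were 23 and 4, against 37.9% and 35.6% of all genes tested.

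**Figure D1:**
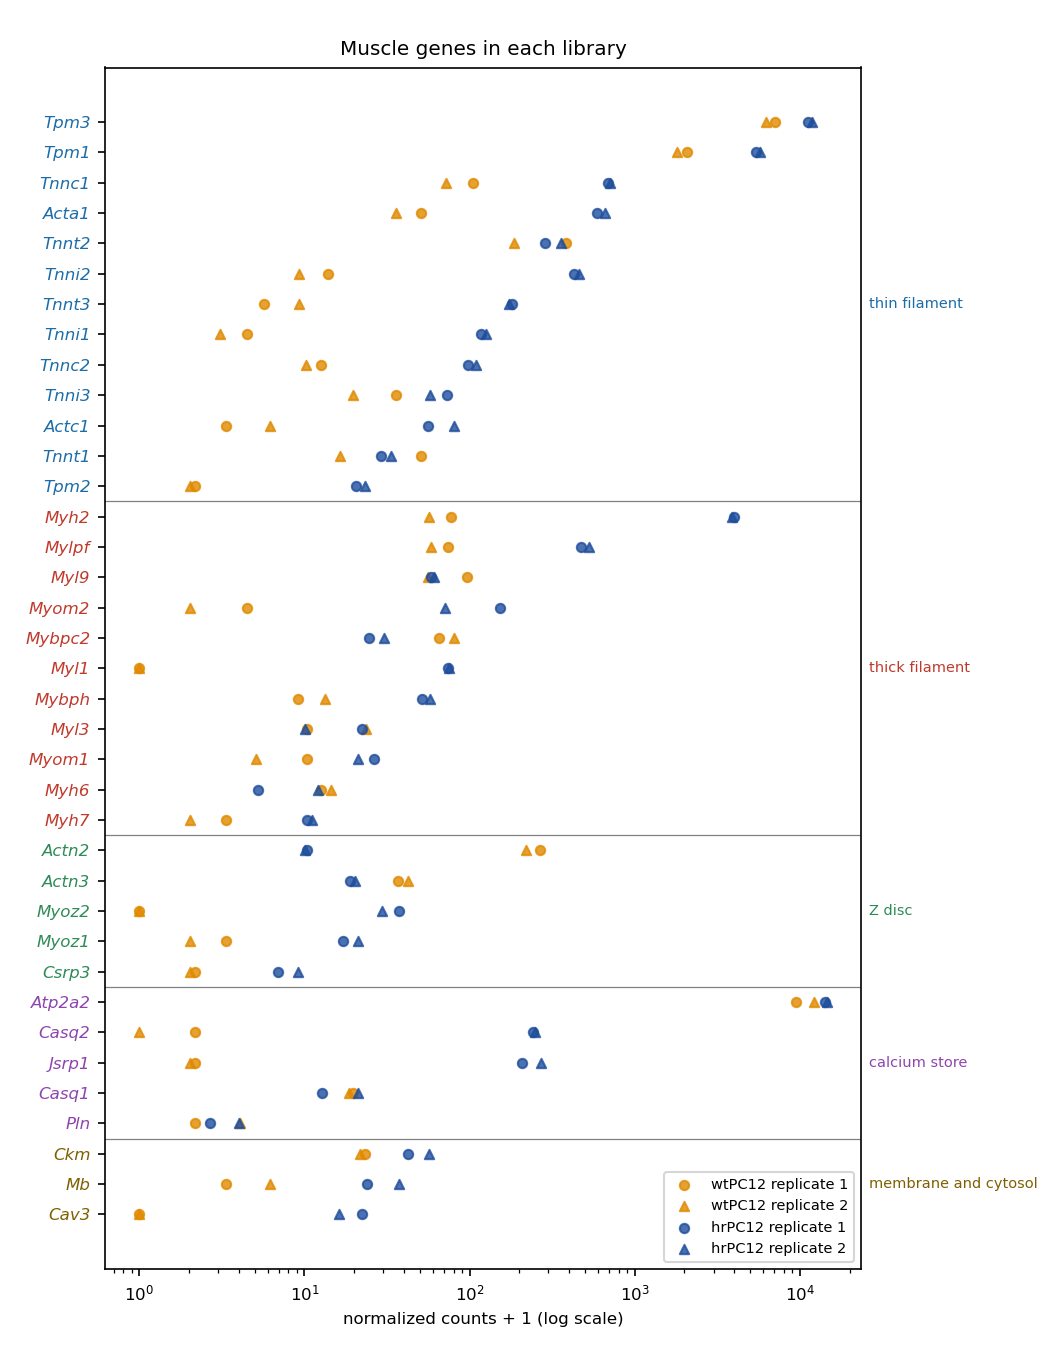
Normalized counts + 1 (log scale) of the 37 listed genes in each of the 4 libraries, ordered by mean within each group. Circles and triangles are replicates 1 and 2, orange is wtPC12 and blue hrPC12: in 27 genes both blue points lie to the right of both orange ones, in Actn2, Actn3, Mybpc2 and Myh6 to the left, and in 6 genes the clones overlap.

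The clones differed in the checks made on the whole libraries. Reads on genes numbered between 20975027 and 27246502 per library. The level of Rest was 43.0 and 132 in wtPC12 against 964 and 915 in hrPC12, a log2 FC of 3.42 that missed the threshold (edgeR adj. p 0.0115). The marker counts that follow stand beside 4.84% called higher and 5.46% called lower among all genes tested. Of 13 tested chromaffin markers 9 were lower in hrPC12, and the summed level of the list was 957325 to 1132170 in wtPC12 and 49600 to 53958 in hrPC12. Most of the wtPC12 sum was Chgb (687936 and 626776, against 288 and 820 in hrPC12). Most of the hrPC12 sum was Ddc (26281.2 and 27994.5, against 24196 and 20841 in wtPC12), which was not called. Of 12 tested fibroblast and pericyte markers 7 were higher and 1 lower, the sums being 22467 to 24831 in wtPC12 and 104441 to 110087 in hrPC12. Most of the hrPC12 sum was Col3a1 (83801 and 88143, against 104 and 85.5 in wtPC12) and most of the wtPC12 sum Thy1 (17929 and 16186, against 8532 and 8675 in hrPC12). Lum had no read in wtPC12 and Rgs5 none in hrPC12, and Dcn was not called (log2 FC −3.10, edgeR adj. p 0.0182). None of 5 tested cardiac markers was higher and 1 was lower (sums of 8137 to 8869 and of 1661 to 2265), with no read of Nkx2-5 or Irx4 in any library. The lower marker was Hand1 (5188 and 4449 against 266 and 326), the largest part of the wtPC12 sums. The largest part of the hrPC12 sums was Hand2 (1349 and 778, against 2100 and 1724 in wtPC12), which is also on the chromaffin list and was not called. None of 3 tested smooth muscle markers was called (sums of 2198 to 2279 and of 1876 to 1888), with no read of Kcnmb1. Of 3 tested white blood cell markers 1 was lower (sums of 1227 to 1316 and of 353 to 406), with no read of Cd3d, Cd8a or Mpo. These sums were mostly Coro1a (1266 and 1186 against 243 and 290), the marker that was lower, while Cd68 had 23.3 and 28.8 against 75.3 and 87.0 and was not called. The called fibroblast and chromaffin markers differed between the same clones as the muscle genes, and their part in the results was not tested. In bulk RNA, fewer cells of a type and less RNA per cell cannot be told apart.

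Start site sequences are shown for 5 genes, namely for both sarcomeric actins, the pair of calcium store genes with the highest log2 FC among the tested genes, and the gene that fell. They are the RefSeq sequences of the rat assembly GRCr8 from 250 bases before to 50 after the start, which is not the build on which the reads were counted (rn4). Such an entry matched 30 of the 37 listed genes, among them 10 of the 14 that were called. Capitals mark the E-box CAGCTG, the sequence class bound by myogenic bHLH factors, the CArG box of serum response factor, and the MEF2 box, searched on both strands.
Acta1 (chr19:68784145-68784444, minus strand): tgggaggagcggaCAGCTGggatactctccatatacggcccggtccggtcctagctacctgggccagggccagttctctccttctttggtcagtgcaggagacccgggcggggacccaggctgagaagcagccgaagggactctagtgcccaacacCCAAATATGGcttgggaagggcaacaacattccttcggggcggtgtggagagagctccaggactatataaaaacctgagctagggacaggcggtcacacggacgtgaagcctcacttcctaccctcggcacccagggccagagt
Actc1 (chr3:121271778-121272077, minus strand): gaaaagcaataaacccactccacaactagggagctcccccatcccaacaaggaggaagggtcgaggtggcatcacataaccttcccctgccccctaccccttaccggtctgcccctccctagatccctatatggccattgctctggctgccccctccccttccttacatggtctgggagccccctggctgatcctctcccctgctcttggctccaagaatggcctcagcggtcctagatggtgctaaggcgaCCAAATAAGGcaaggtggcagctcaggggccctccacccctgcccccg
Jsrp1 (chr7:9552056-9552355, plus strand): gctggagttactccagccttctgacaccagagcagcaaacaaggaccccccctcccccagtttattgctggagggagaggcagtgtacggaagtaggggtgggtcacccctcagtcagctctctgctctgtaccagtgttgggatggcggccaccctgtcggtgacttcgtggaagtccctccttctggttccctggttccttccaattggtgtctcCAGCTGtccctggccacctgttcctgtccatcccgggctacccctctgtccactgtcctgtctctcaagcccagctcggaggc
Casq2 (chr2:192214306-192214605, plus strand): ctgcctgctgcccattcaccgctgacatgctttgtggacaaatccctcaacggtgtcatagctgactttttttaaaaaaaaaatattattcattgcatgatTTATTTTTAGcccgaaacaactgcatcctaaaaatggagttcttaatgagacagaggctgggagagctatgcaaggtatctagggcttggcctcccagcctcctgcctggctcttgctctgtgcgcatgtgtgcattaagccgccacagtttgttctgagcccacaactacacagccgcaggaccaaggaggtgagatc
Actn2 (chr17:62834805-62835104, plus strand): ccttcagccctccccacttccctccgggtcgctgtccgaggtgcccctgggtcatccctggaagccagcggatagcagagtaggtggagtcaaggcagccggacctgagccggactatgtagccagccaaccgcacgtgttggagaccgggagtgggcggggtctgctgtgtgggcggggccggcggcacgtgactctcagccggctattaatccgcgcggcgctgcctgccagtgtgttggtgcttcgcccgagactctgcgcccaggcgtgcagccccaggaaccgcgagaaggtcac
The E-box CAGCTG was found in Acta1 and Jsrp1, 2 of the 9 genes called higher that had an entry, and in 15.1% of all 33469 promoters of this length. The CArG box was found in Acta1 and Actc1 and in 1.64% of all promoters. The MEF2 box was found in Casq2 among the 9 and in 3.29% of all promoters, and TATAAA in 3 of the 9 and in 14.2%. The window of Actn2 held none of these letters. The general E-box CANNTG, which includes CAGCTG, was found in 6 of the 9, in Actn2, and in 72.1% of all promoters. The other 20 listed genes with an entry were tested and not called, or were not tested. Of these 20, 9 held CAGCTG, 4 the MEF2 box, 1 the CArG box, 3 TATAAA and 18 CANNTG. The 4 with the MEF2 box were Myl1, Myoz2 and Cav3, untested for want of a wtPC12 read, and Myoz1 (log2 FC 3.36, not called). In each of these 4 both hrPC12 libraries lay above both wtPC12 ones, as in 27 of the 37 listed genes and 37.9% of all genes tested. Of the 9 with CAGCTG, Cav3, Ckm, Myh7, Myoz2 and Tpm3 lay above in the same way and Myh6 below. Casq1, Pln and Tnnt2 overlapped. A link between these letters and the levels was not tested.

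The thin filament genes made up the largest share of the calls: 8 of 13 were higher in hrPC12 and none was lower. Of all genes tested 4.84% were called higher and 5.46% lower. Among the 8, Actc1, Tnni1 and Tpm2 passed the filter only through their level in hrPC12, which favoured their calls. The median log2 FC of the 13 was 3.28. The sarcomeric actins rose. Acta1, the alpha actin of skeletal muscle, had 50.02 and 35.0 normalized counts in the wtPC12 replicates and 588 and 662 in the hrPC12 replicates. Its log2 FC was 3.88 ± 0.33 (SE), a 14.7-fold difference (edgeR adj. p 0.00155). Actc1, the alpha actin of heart and embryonic muscle, had 2.33 and 5.15 in wtPC12 and 55.0 and 79.9 in hrPC12, with a log2 FC of 4.11 ± 0.58 (edgeR adj. p 0.00700). For both actins the libraries of the clones lay far apart, with the wider relative spread in Actc1, whose wtPC12 values rest on a few reads. Reads that fit more than 1 position were not counted, so stretches that the actin genes share may be missing from these values.

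All 3 subunits of troponin had genes that rose. Tnnc1, the calcium sensor of slow muscle and heart, had 104 and 71.1 in wtPC12 and 688 and 711 in hrPC12, a log2 FC of 3.003 ± 0.310 (edgeR adj. p 0.00279). Tnnc2, its counterpart in fast muscle, had 11.6 and 9.27 against 96.5 and 108, a log2 FC of 3.28 ± 0.40 (edgeR adj. p 0.00474). Both troponin C genes thus rose, and in neither did a wtPC12 library come near an hrPC12 one. Of the inhibitory subunits, Tnni2 of fast muscle had 12.8 and 8.24 against 428 and 461, a log2 FC of 5.39 ± 0.38 (edgeR adj. p 0.000998). Tnni1 of slow muscle had 3.49 and 2.06 against 116 and 125, and since only 3 and 2 reads lay behind the wtPC12 values its ratio of 44.0 has an exact 95% counting interval of 18.6 to 137 (edgeR adj. p 0.00186). The cardiac form Tnni3, with 34.9 and 18.5 against 72.0 and 56.7, was not called (log2 FC 1.27, edgeR adj. p 0.0927).

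The troponin T genes, whose products hold the complex on tropomyosin, differed among themselves. Tnnt3 of fast muscle had 4.65 and 8.24 in wtPC12 and 179 and 173 in hrPC12, a log2 FC of 4.73 ± 0.44 (edgeR adj. p 0.00208). Tnnt1 of slow muscle had 50.02 and 15.5 against 27.9 and 32.4, and Tnnt2 of the heart 380 and 184 against 287 and 357. In both the wtPC12 libraries enclosed the hrPC12 ones, with log2 FC of −0.11 and 0.19. The genes of troponin I and T lie in pairs in the genome, as ordered on GRCr8. Tnni2 and Tnnt3, with 5 coding genes between them, both rose. Tnni1 rose but Tnnt2, with 1 coding gene between them, was not called. The adjacent Tnni3 and Tnnt1 were both not called.

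Of the tropomyosins, which lie along actin and cover its myosin binding sites, Tpm2 was called and Tpm1 and Tpm3 were not. Tpm2, the beta form, had 1 read in each wtPC12 library and 19.5 and 22.3 normalized counts in hrPC12. Its ratio was 19.0 with an exact 95% counting interval of 4.96 to 162 (edgeR adj. p 0.00963), and it was the called gene with the highest adjusted p. Tpm1, which non-muscle cells use too, had 2082 and 1798 against 5407 and 5763, and its log2 FC of 1.53 ± 0.17 lay within 2 although the edgeR adj. p was 0.00376. Tpm3, also used outside muscle, had 7099 and 6276 against 11219 and 11847, with a log2 FC of 0.79 ± 0.17 (edgeR adj. p 0.0249). For both the libraries of the clones did not overlap, with hrPC12 above. DESeq2 did not call Tpm2 (adj. p 0.0248).

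**Figure D2:**
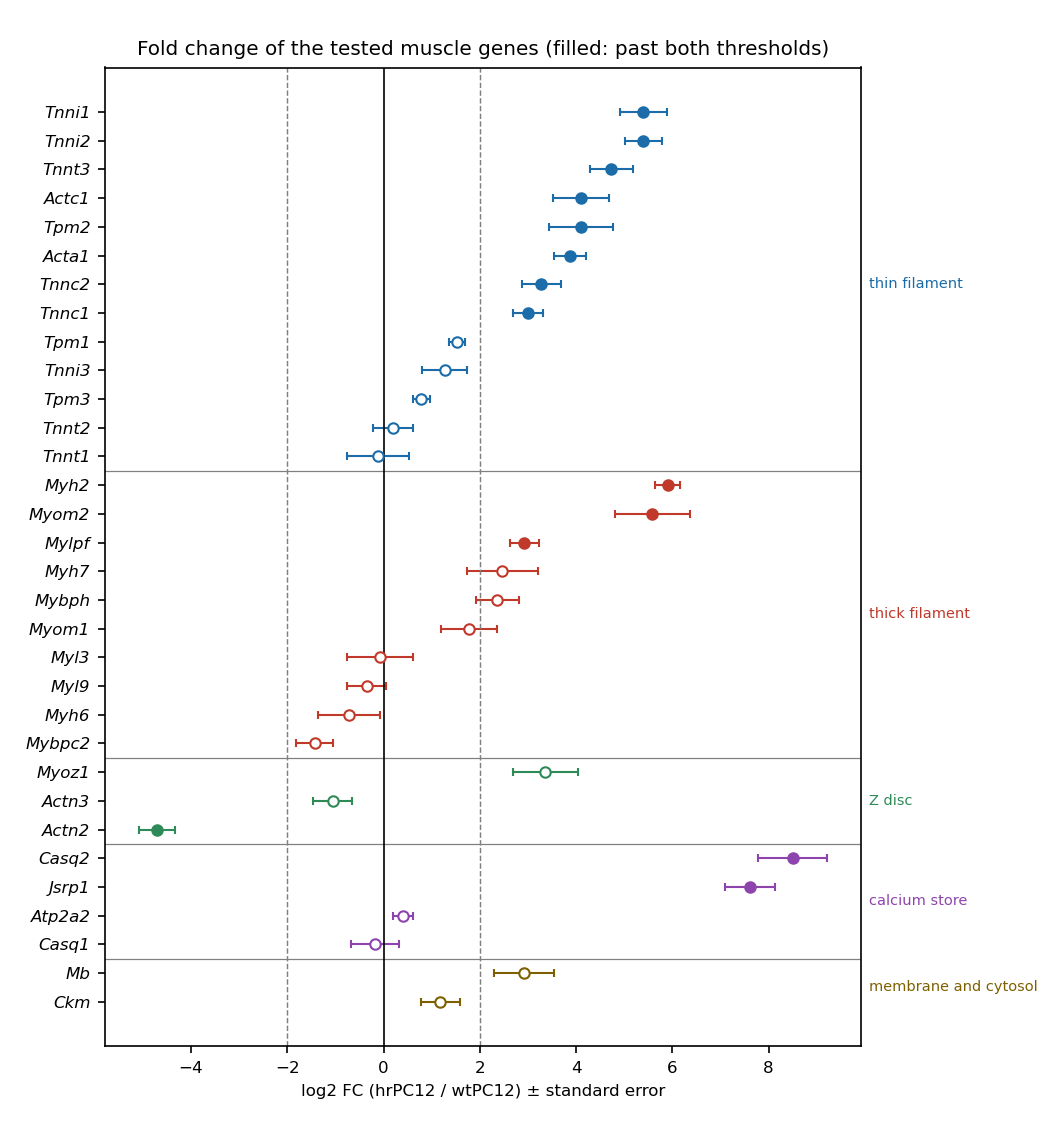
Log2 FC (hrPC12/wtPC12) of the 32 tested genes with the standard error as bars, by group. Filled points are the 14 genes called by edgeR's quasi-likelihood test, 13 right of the dashed line at 2 and Actn2 left of that at −2.

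In the thick filament 3 of 10 tested genes were higher in hrPC12 and none was lower, against 4.84% and 5.46% of all genes tested. Of the 3, Myom2 passed the filter only through its level in hrPC12. The median log2 FC was 2.07. Myh2, the myosin heavy chain of fast oxidative fibres, had 75.6 and 55.6 in wtPC12 and 3972 and 3886 in hrPC12. Its log2 FC was 5.90 ± 0.26, a 59.9-fold difference with the lowest adjusted p of the set (edgeR adj. p 0.000328). The 2 hrPC12 libraries differed far less from each other than from either wtPC12 library. The cardiac heavy chains, which are adjacent in the genome, were near the minimum of the filter: Myh7 had 2.33 and 1.03 against 9.31 and 10.1 (log2 FC 2.47, edgeR adj. p 0.0501, counting ratio 5.91 with an exact 95% interval of 1.76 to 30.9), and Myh6 11.6 and 13.4 against 4.23 and 11.1 (log2 FC −0.72, edgeR adj. p 0.411). The heavy chain genes are alike in sequence, and reads that could not be placed at 1 position were left out of their counts.

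The light chains of fast muscle were higher in hrPC12 and those of other muscle were not called. Mylpf, the regulatory chain of fast muscle, had 73.3 and 57.7 in wtPC12 and 470 and 525 in hrPC12, a log2 FC of 2.92 ± 0.30 (edgeR adj. p 0.00269). Myl1, the essential chain of fast muscle, had no read in wtPC12 and 72.8 and 73.9 in hrPC12. Taking the floor of 3 reads in each wtPC12 library, Myl1 was at least 22.3-fold higher in hrPC12, and it stayed outside the test because it had no read in 1 clone. Myl3, the essential chain of slow muscle and ventricle, had 9.31 and 22.7 against 21.2 and 9.11. Myl9, the regulatory chain of smooth muscle, had 95.4 and 54.6 against 57.6 and 59.7. In both Myl3 and Myl9 the libraries of the clones overlapped, with log2 FC of −0.07 and −0.35.

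Of the M band genes, Myom2, which encodes the M protein that links neighbouring thick filaments, rose. It had 3.49 and 1.03 in wtPC12 and 152 and 69.8 in hrPC12. Its ratio was 52.5 with an exact 95% counting interval of 20.3 to 194 (edgeR adj. p 0.00674). The hrPC12 replicates of Myom2 lay further apart than those of any other called gene, replicate 1 being higher by 1.13 on the log2 scale. Myom1, the myomesin of all sarcomeres, had 9.31 and 4.12 against 25.4 and 20.2 and was not called (log2 FC 1.77, edgeR adj. p 0.0703). The genes of the myosin binding proteins differed in direction and were not called. Mybph had 8.14 and 12.4 against 50.8 and 56.7 (log2 FC 2.37, edgeR adj. p 0.0169), and Mybpc2, the myosin binding protein C of fast muscle, 64.0 and 79.3 against 23.7 and 29.3 (log2 FC −1.43, edgeR adj. p 0.0426). The libraries of the clones did not overlap in either, with hrPC12 above in Mybph and below in Mybpc2.

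At the Z disc the only call among the 3 tested genes was a fall, against 5.46% of all genes tested. Actn2, the alpha actinin that crosslinks actin at the Z disc and is also made in brain, had 266 and 218 in wtPC12 and 9.31 and 9.11 in hrPC12. It was 26.0-fold lower in hrPC12, with a log2 FC of −4.70 ± 0.37 (edgeR adj. p 0.00128), and its libraries lay wide apart. Actn3, the alpha actinin of fast fibres, had 36.1 and 41.2 against 17.8 and 19.2, also without overlap, and was not called (log2 FC −1.06, edgeR adj. p 0.0983). The myozenins, which bind alpha actinin and calcineurin, had the opposite direction. Myoz1 of fast fibres had 2.33 and 1.03 against 16.1 and 20.2, and was not called (log2 FC 3.36, edgeR adj. p 0.0190). Its counting ratio was 11.0 with an exact 95% interval of 3.49 to 55.5. Myoz2 of slow fibres and heart had no read in wtPC12 and 36.4 and 28.3 in hrPC12, at least 9.84-fold higher with the floor of 3 reads in each wtPC12 library. Csrp3, the muscle LIM protein, had 1.16 and 1.03 against 5.93 and 8.09, a mean under 5, and was not tested. The median log2 FC of the 3 tested Z disc genes was −1.06. With Myoz2 at its bound it was 1.12, and without wtPC12 replicate 1 or 2, when Csrp3 passed the filter, 0.71 or 0.75.

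In the calcium store 2 of 4 tested genes rose, against 4.84% of all genes tested, and theirs were the highest log2 FC values of the tested genes. Both passed the filter only through their level in hrPC12, a selection that favoured calls and high log2 FC values. Casq1 and Atp2a2, the tested genes with a mean of at least 5 in each clone, were not called. Casq2, the calcium-binding calsequestrin typical of the heart and present in slow fibres, had 1 read in wtPC12 replicate 1, none in replicate 2, and 240 and 247 normalized counts in hrPC12. Its log2 FC was 8.50 ± 0.71 (edgeR adj. p 0.00134), and the counting ratio of 445 has an exact 95% interval of 79.5 to 17595. Jsrp1, a protein of the junction between the sarcoplasmic reticulum and the surface membrane of skeletal muscle, had 1 read in each wtPC12 library and 207 and 268 in hrPC12. Its log2 FC was 7.61 ± 0.52 (edgeR adj. p 0.000854), and the counting ratio of 215 has an interval of 59.3 to 1781. In both genes the hrPC12 libraries lay above the wtPC12 ones, and the intervals cover counting error only.

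The other calcium store genes were not called. Casq1, the calsequestrin of fast skeletal muscle, had 18.6 and 17.5 in wtPC12 and 11.9 and 20.2 in hrPC12, with overlapping libraries (log2 FC −0.18, edgeR adj. p 0.792). Atp2a2, which encodes the calcium pump of slow fibres and heart and, as another splice form, the pump of the endoplasmic reticulum in most cells, had 9418 and 12256 against 14109 and 14526. Its libraries did not overlap, but the log2 FC was 0.40 ± 0.20 (edgeR adj. p 0.181). Pln, the inhibitor of that pump, had 1 to 3 reads in each library of both clones and was not tested. The median log2 FC of the 4 tested genes was 4.01, and 0.19 without wtPC12 replicate 1, where Casq2 was not tested.

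None of the membrane and cytosol genes passed both thresholds. Mb, which encodes the oxygen-binding myoglobin, had 2.33 and 5.15 in wtPC12 and 22.9 and 36.4 in hrPC12 (log2 FC 2.92, edgeR adj. p 0.0236). Ckm, the muscle creatine kinase, had 22.1 and 20.6 against 41.5 and 55.7 (log2 FC 1.18, edgeR adj. p 0.0796). Cav3, the muscle caveolin, had no read in wtPC12 and 21.2 and 15.2 in hrPC12, at least 5.52-fold higher with the floor of 3 reads. In all 3 both hrPC12 libraries lay above both wtPC12 libraries.

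**Figure D3:**
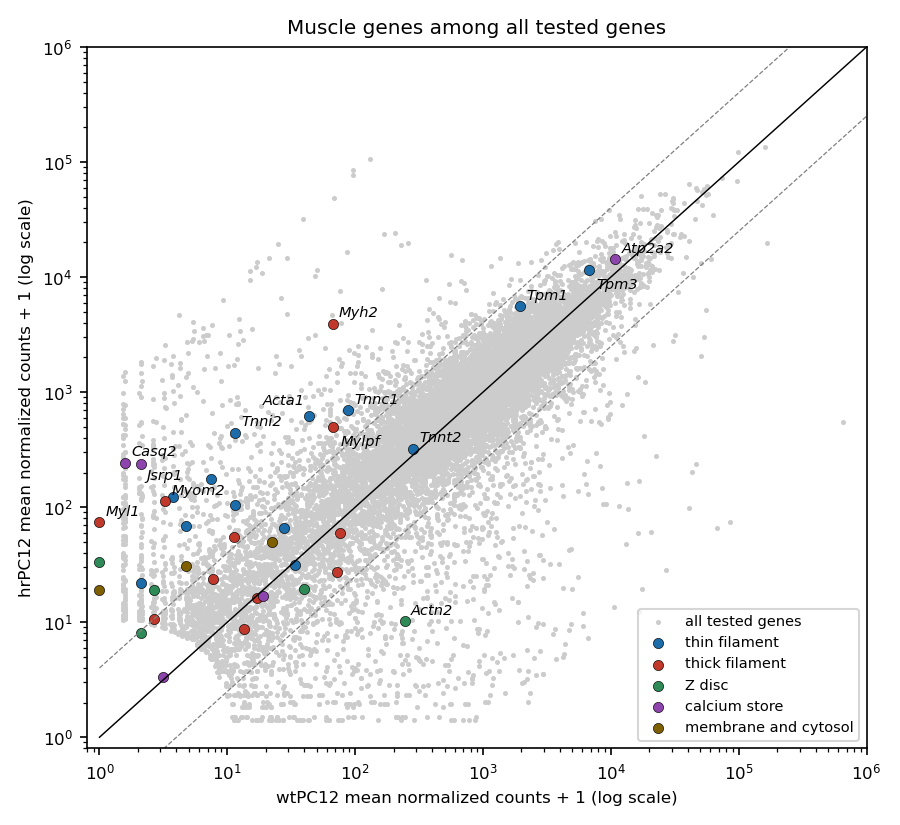
Mean normalized counts + 1 of the 37 listed genes in wtPC12 (x axis) and hrPC12 (y axis), both on log scales, over the genes tested (grey). The solid line is equality and the dashed lines a 4-fold difference: Myh2, Casq2 and Jsrp1 lie far above the upper line, Actn2 below the lower one, and Tpm3 and Atp2a2 near equality.

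The forms of the proteins were compared by the fibre type each gene is known for. The counts of calls stand beside 4.84% higher and 5.46% lower among all genes tested. Of 10 tested genes of fast fibres 5 were called higher (Tnnc2, Tnni2, Tnnt3, Myh2 and Mylpf) and none lower, with a median log2 FC of 3.10. Of the 5 not called, Mybpc2 (−1.43) and Actn3 (−1.06) were lower in hrPC12 without overlap. Of 5 shared by slow fibres and heart 2 rose (Tnnc1 and Casq2), and of 2 of slow fibres alone 1 (Tnni1). The medians of these forms were 2.92 and 2.64, and that of the cardiac genes was 0.73. Of 4 cardiac genes 1 rose, Actc1, which embryonic skeletal muscle also uses, and Tnni3, Tnnt2 and Myh6 were not called. Both tested skeletal genes not tied to a fibre type, Acta1 and Jsrp1, rose. Another 5 tested genes were grouped under muscle in general, with a median of 1.77. Of these Tpm2 and Myom2 rose, Actn2 fell, and Myom1 and Ckm were not called. None of the 3 genes used in most cells (Tpm1, Tpm3 and Atp2a2) was called. Actc1, Tnni1, Tpm2, Myom2, Casq2 and Jsrp1 passed the filter only through their level in hrPC12, so the counts by form partly reflect that selection. The differences between these forms were not tested.

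Genes of related muscle functions moved in both directions. Among 29 tested other sarcomere proteins 9 were higher and 1 lower, with a median log2 FC of 0.19. Of all genes tested 4.84% were called higher and 5.46% lower, so the 1 lower is near the share of all genes. The highest log2 FC values were those of Smyd1, a methyltransferase of muscle (8.81, edgeR adj. p 0.000427), Xirp1, an actin-binding protein of adhesion sites (8.41, edgeR adj. p 0.000266), the ubiquitin ligase Trim55 (8.03, edgeR adj. p 0.000243), Ankrd1 (6.35, edgeR adj. p 0.000427) and the myosin chaperone Unc45b (5.83, edgeR adj. p 0.00402). Unc45b and Smyd1 had 1 read in each wtPC12 library. The gene that fell was Pdlim1 (−2.36, edgeR adj. p 0.00297). Des, the intermediate filament of muscle, had 72.1 and 37.1 in wtPC12 and 17.8 and 9.11 in hrPC12 and was not called (log2 FC −1.995, edgeR adj. p 0.0527).

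The other genes of the calcium store and of its coupling to the membrane had mostly the opposite direction. Of 31 tested 1 was higher, near the 4.84% of all genes tested, and 8 were lower, against 5.46%. The median log2 FC was −0.61. Among the called genes, those that fell furthest were Jph3 and Jph4, the junctophilins of neurons (−7.71, edgeR adj. p 0.000439, and −5.79, edgeR adj. p 0.00105), Sypl2 of the muscle triad (−5.98, edgeR adj. p 0.00132) and the calcium channel Cacna1c of heart and neurons (−4.28, edgeR adj. p 0.00272). Slc8a1, the sodium-calcium exchanger, had 35 and 146 reads in wtPC12 against 0 and 1 in hrPC12 and missed the threshold (log2 FC −7.35, edgeR adj. p 0.0117), and is named after its values were seen. Hrc, the histidine-rich calcium-binding protein of the sarcoplasmic reticulum, rose (4.00, edgeR adj. p 0.00246). The dystrophin complex and costamere list had 5 higher and 1 lower of 19, with a median of 0.80. The 1 lower is near the 5.46% of all genes tested, and 4.84% of all were higher. Cav1 (9.68, edgeR adj. p 0.000243), Sgca (9.63, edgeR adj. p 0.000767), Dtna (6.88, edgeR adj. p 0.00867) and Itga7 (6.05, edgeR adj. p 0.000261) rose and Dysf fell (−5.01, edgeR adj. p 0.00120). Sgca and Dtna had at most 1 read in a wtPC12 library. Cav1 is used by many non-muscle cells.

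**Figure D4:**
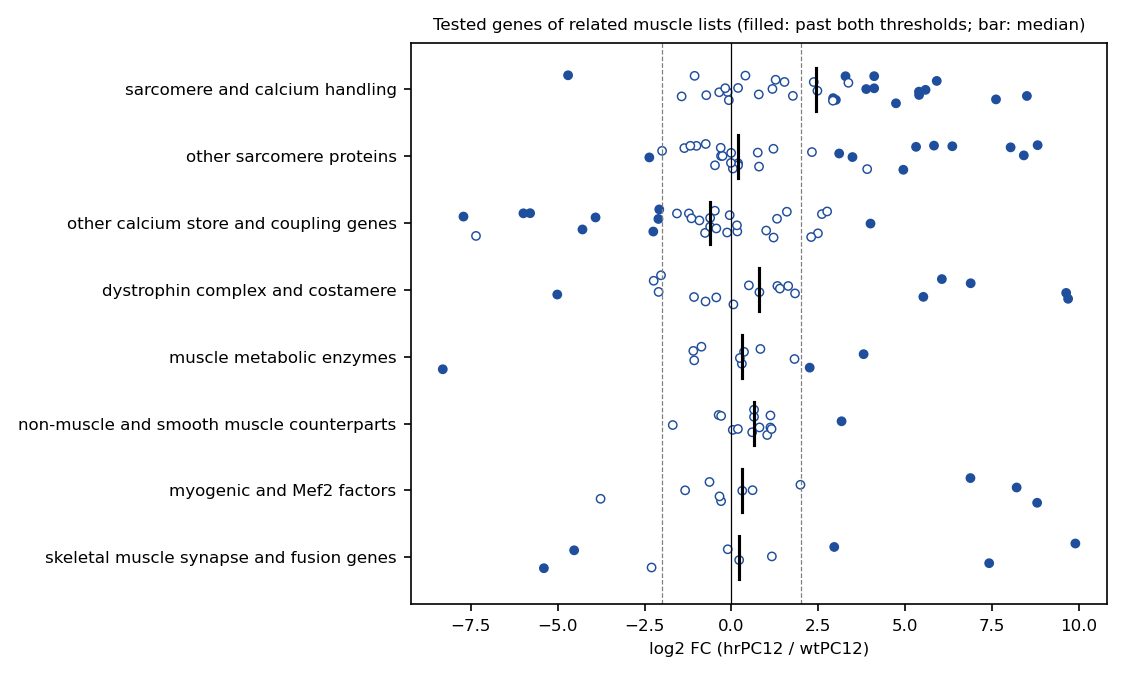
Log2 FC (hrPC12/wtPC12, x axis) of the tested sarcomere and calcium handling genes and of 7 related lists (rows). Filled points passed both thresholds, open points did not, and the bar is the median: it lies at 2.42 in the top row and between −0.61 and 0.80 in the others.

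The non-muscle counterparts of the sarcomere proteins were tested in 14 genes. The actin-binding Cald1 rose (3.17, edgeR adj. p 0.00200), which at 1 of 14 is near the 4.84% of all genes called higher, none was lower, and the median log2 FC was 0.65. Log2 FC was 0.65 for Actb and 1.12 for Actg1, the cytoplasmic actins, 0.60 for Myh9 and 0.04 for Myh10, the non-muscle myosins, and 1.12 for Tagln, and none of these 5 was called. The myogenic regulators, of which 3 of 11 tested rose, are given here for Myod1 with 11.6 and 11.3 in wtPC12 and 3258 and 3576 in hrPC12 (log2 FC 8.20, edgeR adj. p 0.000243), Mef2c (8.79, edgeR adj. p 0.00119) and Myog (6.87, edgeR adj. p 0.00338). Myf5 had no read in any library.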

How the data were processed

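Total RNA of wtPC12 and hrPC12, 2 libraries each, was sequenced as paired-end reads. Per the labels and the study's methods, reads were aligned by the authors to build rn4 of the rat with TopHat2 2.0.4, and the submitters' processing notes also name HTSeq 0.5.3 and DESeq 1.9.12. The deposited values are raw counts of reads per gene, with no normalization or filter. The strand and overlap settings of the counting are not given in the sources used here, and the library kit does not mark strand. The 5 totals rows of each file (reads outside genes, ambiguous, not unique and the like) stayed out of library sizes and tests. Reads without a unique position made up 5.85 to 9.13% of the reads accounted for. The authors' table of their own DESeq comparison (means, fold changes and p values) was not used.

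Counts were scaled with edgeR's TMM factors (R 4.3.3, edgeR 4.0.16, limma 3.58.1). Genes with a mean of at least 5 normalized counts over the 4 libraries and reads in both clones, 13726 in all, entered a quasi-likelihood test in edgeR (legacy option on, all libraries, no covariate), and p values were adjusted over all of them after Benjamini and Hochberg. Thresholds were 0.01 for the adjusted p and 2 for the log2 FC, as in the study's methods, with edgeR in place of DESeq. On simulated counts for these libraries with 13726 genes, of which 200 were changed, edgeR found 193 and called 0 unchanged genes, and DESeq2 1.42.0 found 189. Every changed gene was set past the log2 FC threshold, and all genes were given the same spread. These settings made the changes easy to find, so the outcome gives no error rate for the real libraries. An exact permutation test of 2 against 2 libraries cannot give a two-sided p under 0.333 and was not used. Fold bounds set wtPC12 at 3 reads per library, equal to 3.49 and 3.09 normalized counts in wtPC12 replicates 1 and 2, whose mean was used. Exact 95% intervals of count ratios are given where wtPC12 had reads but at most 3 in each library, and, as no molecular identifiers were used, cover counting error alone. Promoters and gene order come from RefSeq's GRCr8. Sample groups come from the REST level in the labels. Alternatives tried were RLE factors, library totals, every gene with at least 1 read, filterByExpr, DESeq2, a prior count of 2, glmTreat, an adjusted p under 0.05, the legacy option off, and each library left out in turn. Genes were named by rule: all genes of the set, Rest, at most 5 called genes with the largest log2 FC of each related list, and a few fixed markers. The genes of the set and all lists were chosen with earlier results of these data known.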

Additional observations from a re-analysis of the deposited data

How the results depend on the processing

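With each library left out in turn, the count of genes higher in hrPC12 ranged from 0 to 16 and of genes lower from 0 to 1, both 0 without wtPC12 replicate 2. These runs assume that the lone library of a clone varies like those of the other. The medians of log2 FC ranged from 3.12 to 3.42 (thin filament), 1.59 to 2.24 (thick filament), −1.16 to 0.75 (Z disc), 0.19 to 4.10 (calcium store) and 1.71 to 2.36 (membrane and cytosol). Of the genes not called, 5 changed sign in these runs, with log2 FC from −0.73 to 0.93 (Tnnt1, positive without wtPC12 replicate 1), −0.24 to 0.78 (Tnnt2, −0.24 without wtPC12 replicate 2 and −0.02 without hrPC12 replicate 2), −0.81 to 0.71 (Myl3, 0.71 and 0.34 in the same 2 runs), −0.70 to 0.072 (Myl9, positive without wtPC12 replicate 1) and −0.65 to 0.16 (Casq1, positive without hrPC12 replicate 1). edgeR's glmTreat, which tests against a log2 FC of 2, called 7 genes higher and 1 lower, against 2.34% and 2.57% of all genes tested. With every gene of at least 1 read, 17 were called higher, against 6.12% of all genes then tested. The medians in that run were 2.54 for the Z disc, 0.40 for the calcium store and 2.92 for membrane and cytosol, since more genes were tested. With filterByExpr 15 were called higher, against 6.45% of all genes then tested. The Z disc median was then 1.15 and that of membrane and cytosol 2.92, and Myoz2 and Cav3 entered. With these genes at their bound the medians were 1.12 and 2.47. A prior count of 2 gave a calcium store median of 3.34. The RLE factors, library totals, the prior count of 2 and the legacy option off each gave 13 higher and 1 lower. The shares of all genes in these runs were 4.84 to 6.57% higher and 5.44 to 6.56% lower. DESeq2 gave 12 and 1, against 6.4% and 6.62%. An adjusted p under 0.05 gave 16 and 1, against 7.93% and 7.31%. No paired analysis was possible because the labels number no library of one clone to match a library of the other, and the replicate numbers used here are names in order of deposit. With 2 libraries per clone and wtPC12 levels of a few reads, the size of many differences is poorly bounded.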

Other observations

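Some genes of the muscle side of the nerve-muscle synapse and of myoblast fusion differed widely between the clones, in both directions. Of 9 tested 3 were higher in hrPC12 and 2 lower, against 4.84% and 5.46% of all genes tested, with a median log2 FC of 0.22. Musk, the receptor kinase that organizes the synapse, had 1.16 and 2.06 normalized counts in wtPC12 and 1671 and 1675 in hrPC12 (log2 FC 9.89, adjusted p 0.000261 by edgeR's quasi-likelihood test). Rapsn, which clusters acetylcholine receptors, had 32.6 and 23.7 against 4753 and 4835 (log2 FC 7.41, edgeR adjusted p 0.000261), and the cadherin Cdh15 of myoblasts rose as well (log2 FC 2.96, edgeR adjusted p 0.00203). The adhesion molecule Ncam1 (−5.39, edgeR adjusted p 0.00285) and the potassium channel Kcnj11 (−4.52, edgeR adjusted p 0.00416) fell. The 4 tested genes that were not called were added after their values were seen. Log2 FC was −0.11 for Chrna1, 1.16 for Chrnb1 and −2.30 for Chrne, subunits of the acetylcholine receptor, and 0.22 for Dok7. The libraries of the clones did not overlap in Chrnb1, with hrPC12 above, and in Chrne, with hrPC12 below. Of 11 tested muscle metabolic enzymes 2 rose and 1 fell, against the same shares of all genes tested, with a median of 0.30. They were Ldhb (3.80, edgeR adjusted p 0.000923) and Eno3, the muscle enolase (2.25, edgeR adjusted p 0.00200), against the mitochondrial creatine kinase Ckmt1 (−8.30, edgeR adjusted p 0.00115).

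Some genes of related function had no read in wtPC12 and were not tested. They were chosen after their values were seen. Synpo2, an actin-binding protein of the Z disc, had 52.5 and 55.7 normalized counts in hrPC12, at least 16.4-fold higher with the floor of 3 reads in each wtPC12 library. The bound was 16.3-fold for Myh13, a myosin heavy chain of eye muscles, 14.8-fold for Cacng1, a subunit of the skeletal muscle calcium channel, and 14.5-fold for Tmem8c, which drives myoblast fusion. It was 5.08-fold for Trdn, the triadin that links calsequestrin to the release channel.

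The files also hold rows named like protein database entries, which were not counted with the set. MYH8_RAT had no read in wtPC12 and 19.5 and 33.4 normalized counts in hrPC12, at least 8.03-fold higher. DMD_RAT had 54.7 and 75.2 against 165 and 87.0 (log2 FC 0.96, edgeR adjusted p 0.156), and MYH11_RAT 43.0 and 105 against 118 and 111 (log2 FC 0.62, edgeR adjusted p 0.363). The 2 hrPC12 libraries of DMD_RAT differed more than the wtPC12 ones. These rows, too, were chosen after their values were seen.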
